A study of Mus musculus with 28 samples.

Results

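The genes described are those of voltage-gated ion channels and their subunits, taken by symbol: every gene whose symbol starts with Kcn (Kcnj, the inward rectifiers, left out), with Scn and a digit, or with Cacna, Cacnb, Cacng or Hcn. The arrays held 102 such genes among 18501 genes with a symbol, read by 113 probes: 65 potassium, 11 sodium, 23 calcium and 3 HCN channel genes. They were measured in the cerebellum of Ts1Cje mice, which carry a distal piece of mouse chromosome 16 in 3 copies translocated to chromosome 12, where a short segment is lost, and of euploid mice, all labelled B6EiC3SnF1/J A/a, on the day of birth (P0) and at P3, P7 and P10. Each of 28 two-colour arrays compared RNA from the whole cerebellum of 1 Ts1Cje mouse with that of 1 euploid mouse, 56 mice in all, with 6 mice of either genotype at P0, 8 at P3, 8 at P7 and 6 at P10. On 16 arrays, 4 per stage, both mice were of the same stage, and on 12 arrays, 4 per step, they came from neighbouring stages. In the name of an array the stage of its Ts1Cje mouse comes first, so P3/P7 means a Ts1Cje mouse of P3 set against a euploid mouse of P7.

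The values are log2 ratios within an array. A log2 ratio of 1 is a doubling, and the ratios hold no level of a gene, so that genes cannot be ranked by abundance here. A ratio is given as older minus younger on the cross-stage arrays and as Ts1Cje minus euploid on the same-stage arrays. In whole cerebellum, fewer cells of a type and less RNA per cell cannot be told apart. The arrays gave 11354 to 23972 gene values each, with a median of 22159. The precision depends on the number of arrays and on the scatter between them. The residual standard deviation of a member's log2 ratio had a median of 0.746, against 0.819 over all 22225 genes and unnamed probes tested. P10/P7 replicate 2 had the fewest values and the widest spread, 1.76, against 0.421 on the narrowest array, and it held a value for 53 of the 102 members. The direction of the genotype labels was checked on Sod1, a gene of the trisomic segment, which was higher in the Ts1Cje mouse on 16 of 16 same-stage arrays (lowest 0.09, median 0.80, highest 3.13). One P7 array carries P3 in a second label of its euploid mouse and was taken as P7.

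Voltage-gated channels open or close with the membrane potential, and the mixture a neuron expresses sets its firing. Sodium channels carry the upstroke of the action potential, potassium channels repolarise the membrane, calcium channels couple firing to transmitter release and gene expression, and HCN channels pass a pacemaker current on hyperpolarisation. Around birth the cerebellar granule neurons are still being born in the external granule layer, and over the following days they move inward and become electrically mature, while the Purkinje cells extend their dendrites and begin to fire regularly. The symbol prefixes also take in relatives that are not gated by voltage: the two-pore leak channels (Kcnk), the calcium-activated channels of small conductance (Kcnn), the transmembrane AMPA receptor regulatory proteins (TARPs, among the Cacng genes), the cytosolic Kcnab and Kcnip subunits, and 1 RNA transcribed opposite to Kcnd3 (Kcnd3os). Mutations of several of these genes give ataxia in mice or humans, among them Kcna1, Cacna1a and Cacnb4.

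Among members with an entry in the RefSeq promoter table (mouse build GRCm38.p6), the 3 with the smallest p for P7 against P3 are shown. Each line is the 250 bases before a transcription start listed there, 5′ to 3′ on the gene's strand. Capitals mark a GC box, GGGCGG on either strand. Kcnh6 lies on the plus strand at chr11:106007898-106008147. Kcnip3 lies on the minus strand at chr2:127522095-127522344 and Cacnb4 on the minus strand at chr2:52676144-52676393. For the latter pair the first of 3 starts in the table is given. Such a window can hold exon or coding sequence of a transcript from another start of the gene, which was not checked.
Kcnh6: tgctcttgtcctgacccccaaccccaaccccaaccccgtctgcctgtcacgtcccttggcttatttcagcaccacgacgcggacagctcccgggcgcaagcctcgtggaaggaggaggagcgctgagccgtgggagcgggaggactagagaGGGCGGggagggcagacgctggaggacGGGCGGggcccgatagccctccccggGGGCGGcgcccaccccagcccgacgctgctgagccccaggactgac
Kcnip3: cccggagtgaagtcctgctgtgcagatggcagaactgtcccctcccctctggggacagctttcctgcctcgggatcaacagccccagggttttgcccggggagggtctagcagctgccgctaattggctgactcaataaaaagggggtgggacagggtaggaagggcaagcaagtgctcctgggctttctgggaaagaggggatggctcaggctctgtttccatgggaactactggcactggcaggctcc
Cacnb4: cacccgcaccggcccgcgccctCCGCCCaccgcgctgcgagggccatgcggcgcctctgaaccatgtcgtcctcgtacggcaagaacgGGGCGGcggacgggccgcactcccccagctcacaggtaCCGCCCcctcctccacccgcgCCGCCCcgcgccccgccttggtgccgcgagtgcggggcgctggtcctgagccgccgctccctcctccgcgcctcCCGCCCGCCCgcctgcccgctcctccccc
The windows of Cacnb4 and Kcnh6 held 6 and 3 GC boxes (2 of the 6 overlap) at a GC content of 79.6% and 70.8%. That of Kcnip3 held 0 GC boxes at 60% GC, and 3 E-boxes (CANNTG, which reads the same on both strands), of which the other windows held 0. A GC box was thus not common to the 3 windows. Of the 102 members 78 had an entry, with 107 windows in all. A GC box stood in 49 of those 107 windows (45.8%) and in 32.7% of all 32851 windows of the table, an E-box in 73 (68.2% against 66.2%), and a TATA box (TATAAA on either strand) in 2 (1.87% against 12.4%). The median GC content was 58.8% for the members and 52.4% for the table. A match is a run of letters and not a site shown to be bound.

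The change with age was taken from 1 fit of all 28 arrays with 7 parameters, 3 for development and 1 for genotype at each of 4 stages, tested with limma and adjusted by Benjamini-Hochberg over all 22225 genes and unnamed probes. It is the mean over both genotypes. From P3 to P7 Cacng4 fell, the only member to pass at an adjusted p below 0.05 at any step, and it was 1 of 102 (0.98%) where 1.26% of all features passed. Cacng4 encodes TARP gamma-4, which regulates AMPA receptor trafficking and is known from the immature brain. Its log2 ratio was −0.42 and −0.85 on the P3/P7 arrays and −1.07 and −0.80 on the P7/P3 arrays. All 4 arrays were below 0, with either genotype as the older mouse. The fitted change was −0.79 (SE 0.168, 27 arrays, 95% interval −1.14 to −0.44, limma adjusted p = 0.0198), which is 0.579 times the P3 value.

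Cacng4 was otherwise level within the spread of its arrays. Between P0 and P3 the 4 arrays read 0.04, −0.27, −0.01 and 0.27, and between P7 and P10 −0.39, −0.26, 0.02 and 0.09. They lay on both sides of 0 at either step. Over the whole span from P0 to P10 the sum of the steps was −0.91 (0.532-fold, SE 0.291), with a limma adjusted p of 0.454. Taken in each genotype by itself, the change from P3 to P7 was −0.82 in euploid mice, which passed, and −0.76 in Ts1Cje mice (adjusted p = 0.201), each with an SE of 0.2; the difference between them was not tested by itself. The call was lost when any of P3/P7 replicate 2 (adjusted p = 0.114), P7/P3 replicate 1 (0.16) or P7/P3 replicate 2 (0.0784) was left out, the change then lying between −0.93 and −0.68 over all arrays left out in turn. It was also lost with the array of conflicting labels taken as P7/P3 (−0.62, 0.176), with the Xist ratio as a covariate (0.104), on scaled arrays (0.0835), and on the cross-stage (0.192) or the ATJ arrays alone (0.128). Its neighbours on chromosome 11, Cacng1 on one side and Cacng5 on the other with no protein-coding gene between them, read −0.13 and 0.35 at the same step. Cacng5 was above 0 on each of the 4 arrays, at 0.43, 0.34, 0.20 and 0.44, opposite in sign to Cacng4, and did not pass.

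At an unadjusted p below 0.05, 10 members were higher at P7 than at P3 (9.8%, against 7.07% of all features) and 7 were lower (6.86%, against 5.84%). The 4 members nearest to the threshold after Cacng4 were a potassium channel, a potassium channel partner, a calcium channel subunit and a leak channel, all with values above 0. Each was chosen here after its values were seen, or by its change from P0 to P10. Kcnip3 encodes a calcium-binding partner of Kv4 channels that also binds DNA. It read 0.22 and 0.55 on the P3/P7 arrays and 0.80 and 0.96 on the P7/P3 arrays, a fitted 0.63 (1.55-fold, 95% interval 0.29 to 0.97, adjusted p = 0.0592). Kcnh6 encodes a channel of the ERG family, which closes slowly and dampens firing. Its arrays read 0.85, 0.75, 0.68 and 0.69, the narrowest spread of these genes, with a fitted 0.74 (1.67-fold, interval 0.34 to 1.15, adjusted p = 0.06). It was 0.997 in euploid mice taken alone (adjusted p = 0.0372) and 0.49 in Ts1Cje mice, a difference that was not tested by itself.

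Cacnb4 encodes the calcium channel beta subunit whose loss causes the ataxia of the lethargic mouse. Its values were 2.07 and 0.96 with the euploid mouse older and 0.44 and 0.34 with the Ts1Cje mouse older, a fitted 0.95 (1.94-fold, interval 0.39 to 1.52, adjusted p = 0.0855). All 4 were above 0, each the mean of the gene's probes. Cacnb4 was read by 3 probes, with fitted changes of 1.64, 0.29 and 0.93. The size of the fitted change thus depended on the probe while its sign did not. On P3/P7 replicate 1, the array at 2.07, the same probes read 5.48, −0.26 and 0.99. The first of them read −0.27 on P7/P3 replicate 1. Kcnk3 encodes TASK-1, an acid-sensitive leak channel of granule neurons. Its 4 arrays lay between 0.47 and 0.90, a fitted 0.64 (1.56-fold, interval 0.25 to 1.04, adjusted p = 0.101).

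Other members with an unadjusted p below 0.05 at this step, named after their values were seen, read 0.76 for Kcnk10 (TREK-2, a mechanosensitive leak channel), 0.62 for Cacng6, 0.40 for Kcnk1 (TWIK-1), 0.82 for Kcna2, 1.36 for Kcna1 and 0.71 for Scn7a, the sodium-sensing channel of glia. Kcna2 and Kcna1 encode the Kv1.2 and Kv1.1 subunits that sit together in basket cell terminals and beside the nodes of Ranvier. Kcna2 was above 0 on each array (0.70, 0.47, 0.43 and 1.70). Kcna1 rested on 1 array: it read 0.34, 0.60 and −0.05 on the first 3 and 4.57 on P7/P3 replicate 2. On the lower side were Kcna3 (−0.81, Kv1.3), Kcna10 (−2.05), Kcnd3 (−0.51, Kv4.3), Scn3b (−0.51), Cacnb3 (−0.36) and Cacnb1 (−0.79). Kcna3 lay at −0.42, −1.11, −1.01 and −0.68, below 0 on each array and in the direction opposite to its chromosome neighbour Kcna2, with an adjusted p of 0.13. Over these 12 genes the adjusted p lay between 0.13 and 0.372.

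**Figure D1:**
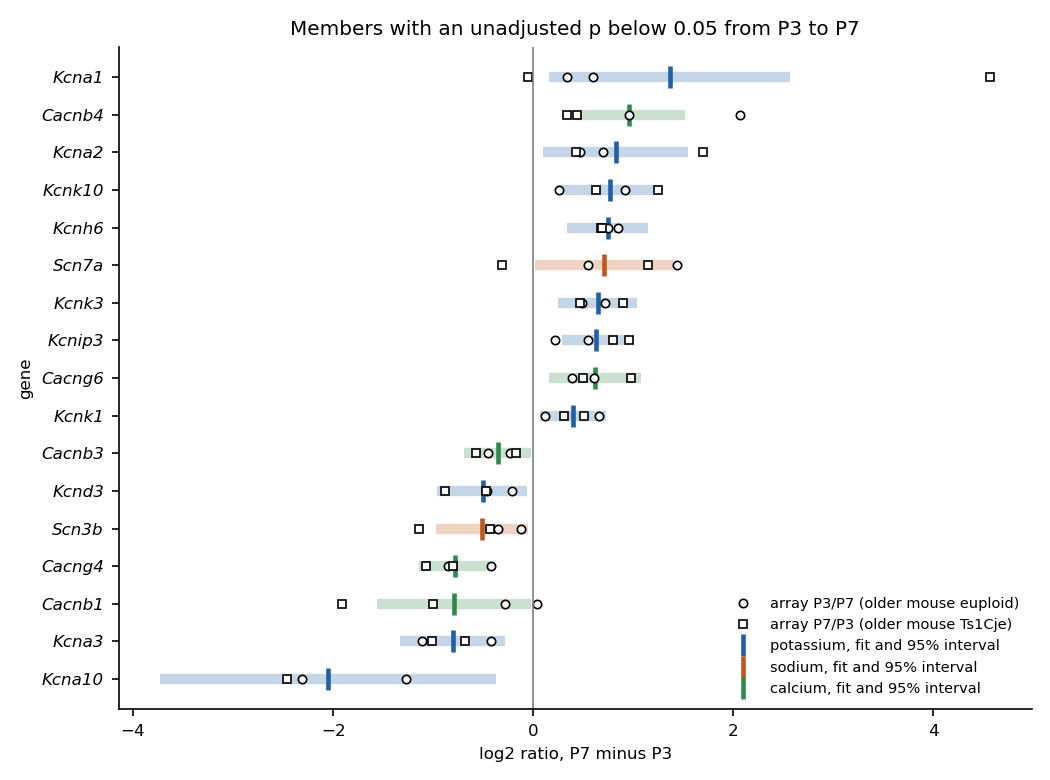
Log2 ratio of P7 over P3 (x axis) for the 17 channel genes with an unadjusted p below 0.05 at this step; open symbols are the 4 cross-stage arrays, coloured ticks the fit of all 28 arrays and bands its 95% interval. The 4 arrays of Cacng4 lie between −1.07 and −0.42, those of Kcnh6 between 0.68 and 0.85, and 1 array of Kcna1 stands apart at 4.57.

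The plot of the step from P3 to P7 sets the arrays beside the fit, and the points show which values rest on a single array. Counted without any fit, 14 of the 81 members with all 4 arrays were above 0 on each of them (17.3%, against 14.1% of all features) and 11 were below 0 on each (13.6%, against 14.4%). The 14 held Cacna1a, the P/Q-type channel of Purkinje cells (0.49, 0.61, 0.20 and 0.16), the R-type channel gene Cacna1e, the AMPA-receptor-linked Cacng5, Hcn2, Kcnn2 and Kcna7 beside those above. Hcn2, whose channel passes the pacemaker current in many cerebellar neurons, had the smallest residual spread of all members, 0.105, and read 0.36, 0.06, 0.12 and 0.18, small values that all had 1 sign. The 11 held Scn3b, Kcnd3, Cacnb3 and Kcnq3 (−0.48, −0.20, −0.57 and −0.29), a subunit of the M-current.

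In the fit, the members leaned towards higher values at P7, with 60 of 102 above 0 (58.8%) and a median of 0.07. Of all features 49.5% were above 0, and their median was −0.01. The mean over all members on a single array of this step lay between −0.1 and 0.2, on both sides of 0. The potassium channel genes stood at 39 above and 26 below 0, the sodium channel genes at 8 and 3, the HCN genes at 3 and 0, and the calcium channel genes at 10 and 13. Within the potassium genes, the electrically silent Kv subunits (Kcnf, Kcng, Kcns and Kcnv), which alter the channels they join, had 6 of 8 above 0 and a median of 0.49, and the Kcne accessory subunits 5 of 5. The 3 Kcnab genes, beta subunits of Kv1 channels, were all below 0 (median −0.30) and stayed so at every step. Among the sodium channel genes, 8 of 9 alpha subunits were above 0 and both beta subunits were below. Of the 6 TARP genes 5 were below 0 (median −0.14), and of the 4 Cacnb genes 3. These are counts of fitted values, most of them smaller than their errors, since the median SE of a member at this step was 0.374.

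**Figure D2:**
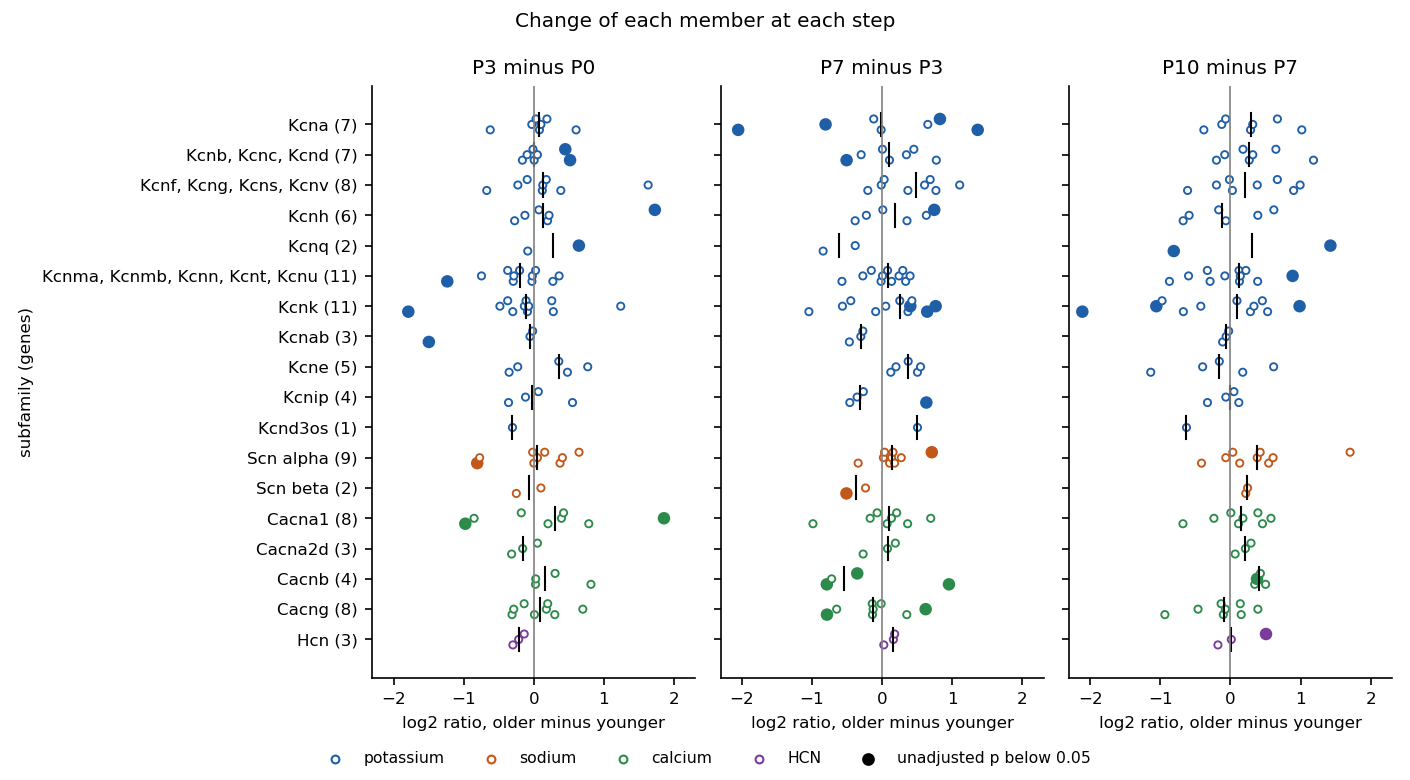
Fitted log2 ratio of each of the 102 genes at the 3 steps (x axes, older minus younger), by subfamily with the number of genes in brackets; black ticks are subfamily medians and filled points have an unadjusted p below 0.05. At P7 minus P3 the medians are 0.49 for the silent Kv subunits and −0.30 for Kcnab.

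The plot of subfamilies shows that most open points lie close to 0 at each step and that the filled points of Kcna from P3 to P7 fall on both sides of 0, while the 3 of Kcnk at that step lie above it. The Kv4 channel, which carries the transient A-type current, gave an example within 1 complex. Its pore genes read 0.00 for Kcnd1, −0.30 for Kcnd2 and −0.51 for Kcnd3, and its Kcnip partners 0.63 for Kcnip3 and −0.36, −0.46 and −0.27 for Kcnip1, Kcnip2 and Kcnip4. Its other partners, the dipeptidyl-peptidase-like proteins, are outside the symbol rule. Dpp10 fell (−1.28 and −0.56 on P3/P7, −1.27 and −2.10 on P7/P3, a fitted −1.30, adjusted p = 0.0406), and Dpp6 read −1.29 with an adjusted p of 0.199. Kcnip1 was below 0 on each of the 4 arrays.

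Among 38 other genes of excitability, 32 were tested, and 22 of those were above 0 and 10 below (median 0.22). Dpp10 passed, 9 were higher and 3 lower at an unadjusted p below 0.05, and the genes nearest to passing were Rims1 (0.97, adjusted p = 0.0751), a scaffold of calcium channels at release sites, Amigo1 (4.32, 0.0758), an auxiliary protein of Kv2 channels measured on 19 arrays, and Slc24a2 (1.07, 0.08), a sodium-calcium exchanger. The ankyrins Ank2 and Ank3, which anchor channels to the membrane skeleton, read 0.54 and 0.47. The list was drawn up with results of these data known.

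Cell type markers moved at the same step in this RNA of whole cerebellum. Of the granule neuron markers 8 of 9 were above 0 (median 0.43, with the list's mean per array between −0.07 and 0.90). Among them Neurod1 rose (0.97, adjusted p = 0.00799). Of the precursor and dividing cell markers 6 of 11 were above 0 while Ccnd1 (−2.45, adjusted p = 0.00204) and Pcna (−0.78, 0.0112) fell, of the Purkinje markers 5 of 10 were above 0 with Slc1a6 up (0.77, 0.00999) and Foxp2 down (−1.89, 0.0112), and of the oligodendrocyte markers 7 of 10 were above 0 with Mbp up (2.50, 0.00999) and Olig1 down (−0.90, 0.0174). Of the astrocyte and Bergmann glia markers 6 of 10 were above 0 with Aqp4 (1.64, 0.000159) and Gfap (1.73, 0.0175) up, and of the endothelial markers 5 of 6 were below 0 with Pecam1 down (−1.13, 0.0481). Of the microglia markers 4 of 7 were above 0 (median 0.54, with the list's mean per array between 0.14 and 0.99). All 4 had an unadjusted p below 0.05 and none passed the adjusted test, with C1qb at 1.33 (adjusted p = 0.11). Of the choroid plexus markers 3 of 6 and of the brainstem markers 4 of 5 were above 0, none past the adjusted test. All 3 erythroid markers tested were above 0, with a mean per array between 0.36 and 2.2. Their part in the channel values was not tested.

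From P0 to P3 no member passed the adjusted test (0.036% of all features did), and 5 were higher and 5 lower at an unadjusted p below 0.05 (4.9% each, against 3.77% and 3.48%). The ANOVA without moderated variances called 0 members at an adjusted p below 0.05 as well, where 25 of 22225 features passed. The higher values belonged to Cacna1e (1.86), Kcnh5 (1.73), Kcnq3 (0.64), Kcnc1 (0.52) and Kcnd2 (0.45). The lower ones belonged to Kcnk13 (−1.79), Kcnab3 (−1.50), Kcnmb2 (−1.23), Cacna1f (−0.98) and Scn7a (−0.81). Kcnh5 and Cacna1f had values on only part of the arrays of this step, 0.70 and 3.11 for Kcnh5 and −1.30 and 0.05 for Cacna1f. Kcnab3 read −4.91 on P0/P3 replicate 2 and −0.31, 0.50 and −1.27 on the others. Kcnc1 encodes Kv3.1, which lets granule neurons and interneurons fire fast. As the mean of its probes it was above 0 on each array of this step (0.14, 0.20, 1.18 and 0.55). It was one of 6 such members out of 76 with all 4 arrays (7.89%, against 6.89% of all features). Single probes of Kcnc1 were not, with −0.12 on P0/P3 replicate 1 for one and −0.23 on P0/P3 replicate 2 for the other. Members below 0 on each array numbered 3 (3.95%, against 6.69%), and Hcn2 was among them, its 4 arrays lying below 0 at this step and above 0 at the next. On the 9 arrays titled ASJ alone, Kcnab3 and Scn7a turned to 0.85 and 0.16.

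Cacna1e, the R-type calcium channel gene, had the highest value of this step and of the whole span, and the arrays disagreed on its size. The 3 arrays with a value between P0 and P3 read 0.12, 4.20 and 1.26, a fitted 3.62-fold (SE 0.466 on the log2 scale, adjusted p = 0.207). Between P3 and P7 it read 0.82, 0.71, 0.77 and 0.48, and between P7 and P10 0.36, 1.16 and 0.33. All 10 arrays had the older mouse higher. Without P0/P3 replicate 1, the array at 0.12, the value was 2.73 and passed (adjusted p = 0.0218), and so did the change from P0 to P10 (4.01, 0.036). Without P0/P3 replicate 2, the array at 4.20, the values were 0.69 (0.661) and 1.96 (0.373), so that the size of the change rested on these 2 arrays.

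From P7 to P10 again no member passed (0.0045% of all features). The ANOVA without moderation called 0 at an adjusted p below 0.05, where 4 of 22225 features passed. At an unadjusted p below 0.05 in limma, 5 were higher and 3 lower (4.9% and 2.94%, against 5.18% and 3.91%). Kcnmb4 encodes the beta-4 subunit that slows BK channels in neurons. It was above 0 on all 4 arrays, at 0.18, 0.12, 0.60 and 2.66, with a fitted 0.89 (1.85-fold, adjusted p = 0.296), the highest value being that of P10/P7 replicate 2, the array with the fewest values. Other values were 1.43 for Kcnq1, 0.99 for Kcnk7, 0.51 for Hcn4 and 0.38 for Cacnb3, and −2.11 for Kcnk6, −1.06 for Kcnk2 (TREK-1) and −0.81 for Kcnq3. Of the 46 members with all 4 arrays, 7 were above 0 on each (15.2%, against 7.43%) and 1, Cacng6, below 0 on each (2.17%, against 6.71%). The 7 were Cacna2d1, Hcn4, Kcna2, Kcnd1, Kcnk3, Kcnmb4 and Kcnu1, and all 46 had a value on P10/P7 replicate 2. Kcnk6 read −7.04 on that array, and on the ASJ arrays alone Kcnk6 and Kcnk2 turned to 0.58 and 0.04 and Cacnb3 to 0.

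Across the whole span from P0 to P10, 0 of 102 members passed the adjusted test (0.045% of all features) in limma, and 0 in the ANOVA without moderation. At an unadjusted p below 0.05, 6 were higher (5.88%, against 4.37%) and 3 lower (2.94%, against 3.69%). No array compared P0 with P10 directly, and the value is the sum of 3 steps. Cacna1e stood highest at 3.13 (8.75-fold, SE 0.769, 95% interval 1.53 to 4.73, adjusted p = 0.248). Cacnb4 followed by size of p with 1.68 (3.21-fold, interval 0.71 to 2.66, adjusted p = 0.389). Kcnmb4 read 1.5, Kcnh6 0.86, Kcnk3 0.84 and Kcnip3 0.74, with adjusted p between 0.454 and 0.568. The 3 on the lower side were Kcnk13 (−3.21, SE 1.33), a halothane-inhibited leak channel known from microglia, Cacna1f (−1.28), the L-type channel of photoreceptors, and Cacng4.

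**Figure D3:**
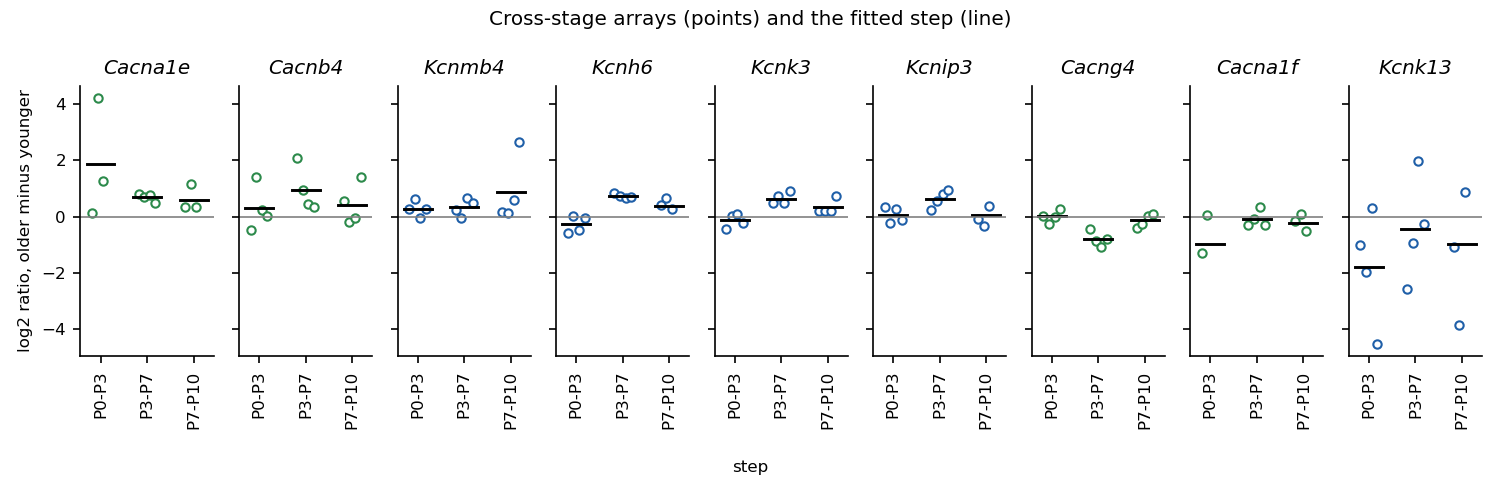
Log2 ratio on the cross-stage arrays (open points, older minus younger) at each of the 3 steps for the 9 genes with an unadjusted p below 0.05 from P0 to P10; black lines are the fitted steps. Cacna1e is above 0 on all 10 of its arrays, Cacng4 has all 4 arrays below 0 from P3 to P7 and arrays on both sides of 0 at the other steps, and the arrays of Kcnk13 spread from −4.51 to 1.99.

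In the plot of steps by array, the 4 arrays of a step lie close together for Kcnh6, Kcnk3, Kcnip3 and Cacng4 and far apart for Kcnk13. Kcnk3 and Kcnh6 read −0.13 and −0.27 from P0 to P3, with arrays on both sides of 0, and their arrays were all above 0 at both later steps. Kcnip3 read 0.07 and 0.05 at the first and last step, so that nearly all of its change lay between P3 and P7.

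Other genes with known roles in cerebellar neurons had P10 against P0 values past 1 SE that did not pass the adjusted test. These were Kcnk1 0.60, Kcnc1 0.54, Scn1a 0.94 and Scn2a 0.74 (alpha subunits of the main neuronal sodium channels), Kcna1 1.87, Cacna1b 0.72 (the N-type channel), Cacna2d1 0.34, Kcnip1 −0.78, Kcnip4 −0.71 and Kcnq3 −0.55. Kcnab3 and Cacng8 read −1.99 and −1.04. On the ASJ arrays alone Kcnab3, Kcnip1 and Scn1a turned to 0.21, 0.16 and −0.14, and with the Xist ratio of the array as a covariate Kcnc1 turned to −0.11. For 20 further genes that the naming rule picked, among them Scn8a, Cacna1a, Cacna1g, Kcnma1, Kcnn2, Kcnd2, Hcn2, Hcn3, Hcn4 and Cacng2, the value from P0 to P10 was smaller than its own SE and lay between −0.55 and 1.21. In all, 61 of 102 members were above 0 over the span (59.8%, against 51.1% of all features), with a median of 0.22 against 0.02 for all features. The 8 silent Kv subunit genes were all above 0 (median 0.72, lowest 0.19, highest 1.79), and 7 of 9 sodium channel alpha subunits were (median 0.69). No gene of either set had an unadjusted p below 0.05 over the span. The medians of the single steps were 0.00 from P0 to P3 and 0.12 from P7 to P10, against 0.00 and 0.01 for all features.

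A gene dose of 3 copies against 2 applied to Kcne1 and Kcne2, small single-pass subunits that slow or shift the gating of Kv channels and that lie near each other in the trisomic piece of chromosome 16. The 95% interval of either gene's mean effect included 0. Kcne1 read between −1.64 and 1.71 on the 14 same-stage arrays that held it (median 0.09), 7 above 0 and 7 below. Averaged over the 4 stages its effect was 0.00 (SE 0.174, 26 arrays, 95% interval −0.36 to 0.36). Kcne2 read between −2.78 and 3.09 on 15 arrays (median 0.34), 10 above 0 and 5 below. Its effect was 0.39 (1.31-fold, SE 0.276, 24 arrays, interval −0.19 to 0.96). The interval of Kcne1 ends below the 1.5-fold that 3 copies would give in proportion, and that of Kcne2 includes it, as well as no change. The arrays of either gene overlapped 0 at every stage. Whole cerebellum can include choroid plexus, where Kcne2 is known to be abundant; of the 6 choroid plexus markers tested 3 were above 0 and 3 below for the genotype mean (from −0.38 to 0.35), and their part in the Kcne2 values was not tested.

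**Figure D4:**
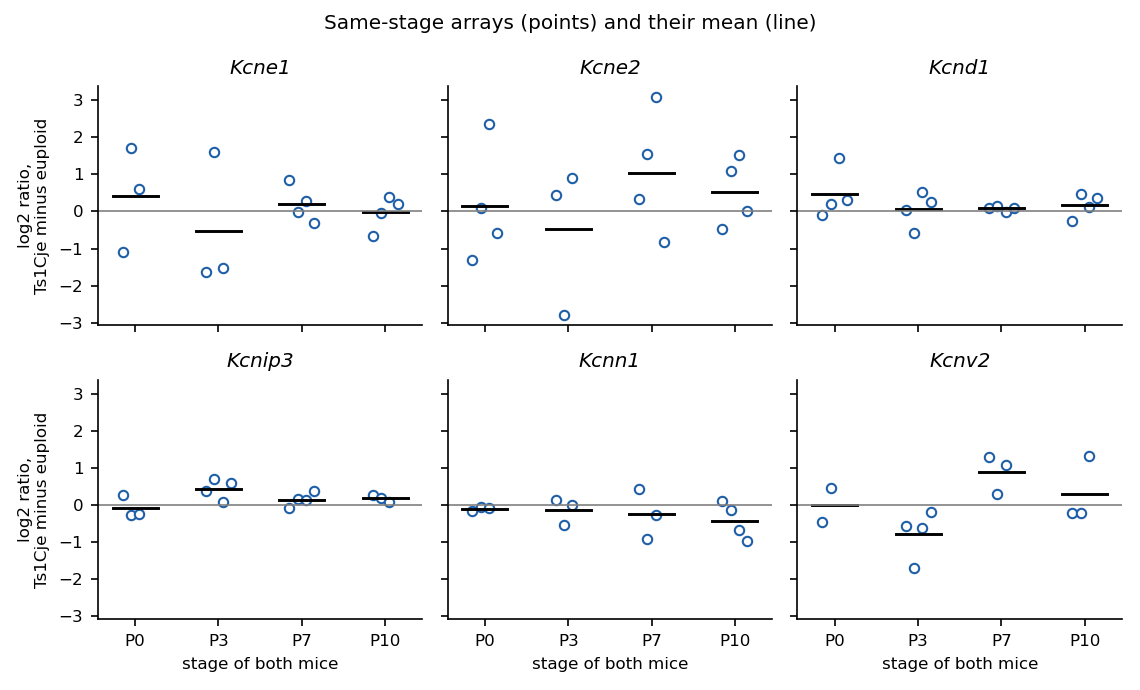
Log2 ratio of Ts1Cje over euploid (y axis) on the same-stage arrays (open points) at each stage (x axis), with their mean (line), for the 2 genes in 3 copies and 4 genes with an unadjusted p below 0.05 in a genotype comparison. Kcne2 spreads from −2.78 to 3.09 and Kcnip3 only from −0.27 to 0.71.

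The plot of same-stage arrays shows a wide spread for the genes in 3 copies. Over the 102 members, 0 differed between genotypes in the mean over the 4 stages at an adjusted p below 0.05 (0.018% of all features did). The ANOVA without moderation called 0 members at an adjusted p below 0.05, where 4 of 22225 features passed. At an unadjusted p below 0.05, limma gave 2 higher in Ts1Cje (1.96%, against 1.95%) and 1 lower (0.98%, against 2.13%). The 3 genes were Kcnd1, Kcnip3 and Kcnn1. Kcnd1, a Kv4 pore gene, was above 0 on 12 of 16 arrays (lowest −0.57, median 0.14, highest 1.44), with a mean effect of 0.22 (1.17-fold, interval 0.05 to 0.39). Kcnip3 was above 0 on 11 of 14 arrays (lowest −0.27, highest 0.71), with 0.16 (1.11-fold, interval 0.01 to 0.30). Kcnn1, which encodes the SK1 channel, was below 0 on 10 of 13 arrays (lowest −0.98, highest 0.44), with −0.36 (0.78-fold, interval −0.66 to −0.06). The adjusted p of each was 0.993, and each gene had arrays on both sides of 0. The value of Kcnd1 is the mean of 2 probes, which by themselves gave 0.30 (SE 0.167, 25 arrays) and 0.14 (SE 0.113, 27 arrays). On P0/P0 replicate 3, the array at 1.44, these probes read 3.29 and −0.41. Kcnd1 lies on the X chromosome, and the labels give no sex of the mice.

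Next in order of p on the higher side were Kcnk7 (0.29), Cacng3 (0.37) and Scn9a (0.74, on 8 same-stage arrays), and on the lower side Kcnf1 (−0.65), Scn2b (−0.51), Kcna2 (−0.24) and Kcnab2 (−0.18). Kcna2 and Kcnab2 encode a Kv1 pore subunit and the beta subunit bound to it, and were below 0 on 10 of 15 and 11 of 14 same-stage arrays. All 4 Kcnip genes were above 0, between 0.04 and 0.26. The intervals say how large a difference could have gone unseen. For 68 of 102 members the 95% interval of the mean effect lay within 1.5-fold in either direction, for 95 within 2-fold, and for 79 its upper bound was under 1.5-fold. The intervals reached a median of 0.32 to either side on the log2 scale. Of all members 57 were above 0 (55.9%, against 49.4% of all features) and 45 below, with a median of 0.02 against 0.00 for all features.

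**Figure D5:**
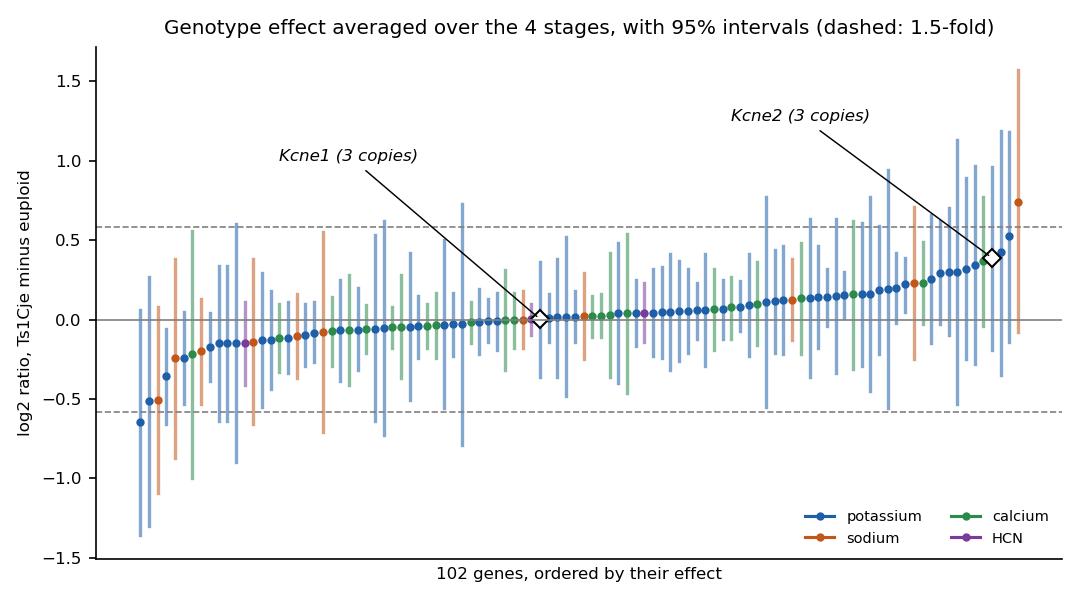
Ts1Cje minus euploid log2 ratio averaged over the 4 stages (y axis) for the 102 channel genes in order of their effect (x axis), coloured by class; bars are 95% intervals, dashed lines mark 1.5-fold and diamonds the genes in 3 copies. Kcne1 lies at 0.00 and Kcne2 at 0.39, inside the range of the genes in 2 copies (−0.65 to 0.74).

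The plot of genotype means shows the bars of most genes crossing 0. At a single stage the intervals were wider (a median of 0.76, 0.70, 0.67 and 0.74 to either side at P0, P3, P7 and P10), and 25, 24, 30 and 19 members had an interval within 1.5-fold. No member passed at P0 (0% of all features), P3 (0.0045%), P7 (0%) or P10 (0%). At an unadjusted p below 0.05 limma gave 3 members at P0 (2.94%, against 4.43% of all features), 5 at P3 (4.9%, against 5.61%), 3 at P7 (2.94%, against 1.73%) and 4 at P10 (3.92%, against 5.21%). At an adjusted p below 0.05 the ANOVA without moderation called 0 members at each stage, and 0 of all features.

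The genes with the smallest p at P0 were Kcna10 (2.04), Kcnd1 (0.48) and Scn1a (−0.74), at P3 Cacna1f (0.70), Kcnip3 (0.38) and Kcnv2 (−0.71), at P7 Kcnv2 (0.93), Kcnk13 (1.80) and Kcnn1 (−0.71), and at P10 Kcnmb4 (0.66), Kcnn1 (−0.80) and Cacna2d3 (0.91). Their adjusted p lay between 0.8 and 1. The log2 ratios listed are fitted values, which draw on the cross-stage arrays too. The same-stage mean lay further from 0 for Kcna10 (2.41), Cacna1f (0.76), Kcnip3 (0.44), Kcnv2 at P3 (−0.77) and Cacna2d3 (1.03). It lay nearer 0 for the rest, among them Kcnk13 (0.4, from 0.46 and 0.35) and Kcnn1 (−0.25 at P7, −0.42 at P10). Cacna2d3 read 0.1, −0.17, 0.75 and 3.42 on the P10/P10 arrays, so its mean rested largely on the last. Kcnd1 read −0.1, 0.2, 1.44 and 0.31 on the P0/P0 arrays, and its probes read 3.29 and −0.41 on the array at 1.44. Kcnip3 read 0.37, 0.71, 0.08 and 0.60 on the P3/P3 arrays, all above 0. Of the 8 pore-forming Cacna1 genes 0 were above 0 at P7 (median −0.25), where 48.7% of all features were, and none of the 8 had an unadjusted p below 0.05. Whether the genotype effect differed between stages was tested by an F test of 3 differences, which no member passed (0% of all features). At an unadjusted p below 0.05 it gave 3 members (2.94%, against 3.08%), namely Kcnv2, Kcnq1 and Cacna1h. Kcnv2, a silent Kv subunit known from photoreceptors, read −0.56, −1.70, −0.63 and −0.19 on the P3/P3 arrays and 1.30, 0.31 and 1.09 on the P7/P7 arrays. The 2 sets did not overlap, in a gene picked by its small p. The adjusted p of the F test was 1.

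Several members lie side by side in the genome, with no protein-coding gene between them, and their values at 1 step could have opposite signs. Besides the Cacng1, Cacng4 and Cacng5 run examples were Kcna3, Kcna2 and Kcna10 on chromosome 3, Scn1a, Scn9a and Scn7a and Scn3a and Scn2a on chromosome 2, Kcna5 and Kcna1 on chromosome 6, and Cacng7, Cacng8 and Cacng6 on chromosome 7. From P3 to P7 the Kcna3, Kcna2 and Kcna10 run read −0.81, 0.82 and −2.05 and the Cacng7, Cacng8 and Cacng6 run −0.14, −0.65 and 0.62, while Scn1a, Scn9a and Scn7a read 0.11, 0.27 and 0.71. Members of a family share sequence, and a probe can bind the RNA of a close relative; this was not tested. For 10 members more than 1 probe was averaged, and probes of a gene could differ. The 2 probes of Kcns2 read −1 and 2.03 from P0 to P10, those of Scn7a −1.57 and −0.04 from P0 to P3, and those of Cacng6 0.11 and 1.13 from P3 to P7.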

How the data were processed

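Total RNA of individual whole cerebella was labelled by reverse transcription and hybridised to spotted two-colour arrays of 25344 probes. Each deposited value is a log2 ratio, Cy5 over Cy3. The authors read median pixel intensities with GenePix Pro, subtracted the local background, removed control, irregular and dim spots, which are missing values here, and normalised each array by local LOWESS in R. A dim spot was one under 1.2 times the local background, so a gene near background is missing from the arrays where it was low.

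The sign was turned on the 14 arrays with Ts1Cje on Cy3. Of the probes 20626 had 1 gene symbol, 0 had several and 4718 had none; 257 control spots were dropped, and of the rest 15685 took their symbol from the accession, 2963 held a current symbol, 1694 were updated from an older one and 27 stayed as given. The probes of 1 gene were averaged within each array, leaving 23219 features, genes or unnamed probes. For 22225 of them there were 14 or more arrays with a value and 5 or more residual degrees of freedom, and these were tested in limma 3.58.1 under R 4.3.3 (prior degrees of freedom 2.74) and the data.table package (version 1.17.8). The members had values on 16 to 28 arrays (median 26), and all 102 were tested. Python 3.11.15 with matplotlib 3.10.9, pandas 2.3.3 and numpy 2.4.6 drew the plots and joined files. The fit was tested on simulated data.

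The members, the marker and partner lists and the rule for named genes were chosen with earlier results of these data known. Genes were named if they passed, by smallest p per class and per genotype comparison, if in 3 copies, or from a list of channels of cerebellar neurons, some of which are not reported here. Alternatives changed the moderation, dye terms, array batch by title (9 ASJ and 19 ATJ arrays), model, arrays, genotype, scale, weights, missing-value filter, probes and the array with conflicting stage labels. The mice are individual animals, and litters were not used, so p-values reflect variation among these animals only. The series record pairs a male with a female mouse on each array, the labels give no sex, and the Xist ratio stood in for it in an alternative.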

Additional observations from a re-analysis of the deposited data

Results flagged for a closer look

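In 93 sets of 4 arrays, 6 (6.45%) had 1 array far from the other 3. For normal values of equal spread the rate is about 1 in 20. The arrays differed in spread (0.421 to 1.76) and the genes were picked partly by small p, so that rate is only a rough guide. On P7/P3 replicate 2 the older mouse stood apart for Kcna1 (4.57, the others −0.05 to 0.60) and for Kcnip1 (−0.81, the others −0.25 to −0.14). On P10/P7 replicate 2, the array with the fewest values and the widest spread, it stood apart for Kcnk2 (−3.63, the others −0.37 to 0.02), Kcnk3 (0.72, the others 0.20 to 0.21) and Cacna2d1 (0.66, the others 0.03 to 0.12). In the Ts1Cje against euploid comparison at P10, Kcnmb4 read 1.71 on P10/P10 replicate 4 and 0.04 to 0.09 on the others.

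Among 21 genes compared between the stages, 2 pairs of stages had every array on opposite sides of 0. All of the 21 but Kcne1 and Kcne2 were picked by a small p in the genotype tests of these same arrays. The share of all features with such a pair was not counted. Kcnk13 was higher in Ts1Cje on 3 P0 arrays (0.56 to 2.52) and lower on 4 P3 arrays (−3.01 to −0.55), a difference of −2.94 between the means. Kcnv2 was lower on 4 P3 arrays (−1.70 to −0.19) and higher on 3 P7 arrays (0.31 to 1.30), a difference of 1.67. The F test over the 4 stages gave an adjusted p of 1 for both, and the single pair of stages was not tested.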

How the results depend on the processing

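The count of members that passed from P3 to P7 was 1 and ranged from 0 to 6. It was 4 without moderation (Cacng4, Kcnh6, Kcnip3 and Kcnk3), 2 with a dye term (Cacng4 and Kcna3), 2 for euploid development alone (Cacng4 and Kcnh6), 3 with at least 24 arrays, 5 with array weights and 6 without the 3 arrays of fewest values, which added Cacnb4 and Kcnk10. It was 0 on the ASJ arrays alone (44 members tested), the ATJ arrays alone, the cross-stage arrays alone (where 0 of 20169 features passed), for Ts1Cje development alone, with arrays scaled to a common spread, with the array of conflicting labels taken as P7/P3, and with the Xist ratio as a covariate. With single arrays left out it was 0 to 3: 0 without P3/P7 replicate 2 or either P7/P3 array, 2 without P0/P3 replicate 2, and 3 without P10/P10 replicate 4, P10/P7 replicate 2 or P3/P3 replicate 2. The change of Cacng4 lay between −0.90 and −0.62 over the settings (adjusted p 0.00174 to 0.201). The counts for P3 minus P0 and P10 minus P0 were 0 to 1 with single arrays left out, the 1 being Cacna1e without P0/P3 replicate 1. The causes were not tested.

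Signs turned on the ASJ arrays alone for Kcnab3 (P3 minus P0 0.85, P10 minus P0 0.21), Scn7a (P3 minus P0 0.16), Cacnb3, Kcnk2 and Kcnk6 (P10 minus P7 0, 0.04 and 0.58), and Kcnip1 and Scn1a (P10 minus P0 0.16 and −0.14), and with the Xist ratio for Kcnc1 (P10 minus P0 −0.11). The Kcne1 genotype mean of 0.00 was −0.02 without the 3 arrays of fewest values, −0.10 with the Xist ratio, −0.01 in the additive fit and on scaled arrays, −0.05 with a dye term per title prefix or array weights, 0.15 on the ATJ arrays alone, and −0.10 to 0.10 with single arrays left out. No paired analysis was possible because the labels carry no replicate numbers; the only pairing is that of a Ts1Cje with a euploid mouse on each array, which every ratio holds. The limit on pairing is that of the labels, since the paper's supplement identifies each sample by its litter and pup. A litter block was not fitted, and any mice of 1 litter were treated as independent. Dim spots are missing, so low genes rest on fewer arrays.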
